A study of Homo sapiens with 14 samples.

Results

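The P4-ATPase lipid flippases measured here are 8 catalytic subunits (ATP8A1, ATP8B1, ATP8B2, ATP9A, ATP9B, ATP10D, ATP11A and ATP11B) and their partner subunit TMEM30A. They were chosen by gene symbol, and these 9 messages are among 19440 gene symbols counted in 14 libraries. All 9 passed the filter on low counts. Ribosome footprints were counted per gene in Flp-In T-REx 293 cells, a derivative of the HEK293 human embryonic kidney line, and each line carried a doxycycline-inducible transgene for a 3Flag-tagged component of the EMC, a protein complex in the membrane of the endoplasmic reticulum (ER). The first line was an EMC6 knockout that expressed 3Flag-EMC6, and the others expressed 3Flag-EMC7 or 3Flag-EMC10, with no knockout named in their labels. All were induced for 72 h at 0.5 to 1 ng/mL doxycycline and harvested in cycloheximide, which stalls ribosomes. Microsomes treated with nuclease and then solubilized were the input, and what Flag beads held of that input was the immunoprecipitate (IP). The design gave n = 2 IP and 2 input libraries with EMC6, 2 and 2 with EMC7, and 3 and 3 with EMC10. No IP from cells without a tagged subunit was analysed here, so ribosomes held through the EMC and other material on the beads cannot be told apart.

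Flippases use ATP to move phospholipids from the luminal or outer leaflet of a membrane to the cytosolic leaflet, which keeps phosphatidylserine and phosphatidylethanolamine on the cytosolic side. The catalytic subunit is a polytopic P-type ATPase with many membrane segments and large cytosolic domains. TMEM30A, also called CDC50A, has a membrane segment near each end and a large glycosylated luminal domain between them, and most catalytic subunits need it to leave the ER. The EMC inserts membrane segments and helps fold polytopic proteins at the ER. A footprint count in the IP relative to the input asks how far ribosomes that translate a message were retained with the tagged subunit.

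Libraries held 515302 to 960279 counts on genes in the EMC6 IPs and 1692490 to 1835892 in their inputs. The EMC7 line gave 1477225 to 2248591 counts per IP and 2397165 to 3395114 per input, and the EMC10 line 1335235 to 1784496 per IP and 2907065 to 3371471 per input. The bait's own message took 0.431% to 0.449% of counts in EMC6 IPs (0.00301% to 0.00463% in inputs), 14.4% to 15.0% in EMC7 IPs (0.534% to 0.602%) and 24.6% to 26.1% in EMC10 IPs (0.312% to 0.393%). Reads not assigned to a gene were 9.28% to 12.5% of counts with EMC6, against 2.76% to 5.15% with EMC7 and EMC10. Of 5 transcripts taken as marks of HEK293 cells, VIM, KRT8, KRT18 and LIN28B were present in every input and NEFM was at 0 to 1 counts. Among markers of other cells, PTPRC, ALB and UMOD had 0 counts in every input, CD3E, APOA1 and HBB had 0 to 3, and the proximal tubule gene LRP2 had 860 to 2857.

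All 8 catalytic messages were higher in IP than in input with each bait, by 5.86-fold to 17.2-fold, and TMEM30A was not. In edgeR's quasi-likelihood test, adjusted over 9458 genes, 8 of 9 members were called higher and 0 lower with EMC6, against 17.6% of all genes called higher and 9.27% lower. The same counts were reached with EMC7 (20.4% and 9.68% of all genes) and with EMC10 (19.9% and 13.9% of all genes). The 8 were called higher with each of the 3 baits, as 15.2% of genes were. In all 3 lines each catalytic message had every IP library above every input library, an arrangement found for 17.4% of genes. Values per library below are CPM (counts scaled to the size of the library) after TMM scaling of library sizes. Since the IP shifts many messages, log2 changes are relative to that scaling, under which the median gene stood at -0.12 with EMC6, -0.14 with EMC7 and -0.17 with EMC10. CPM is not corrected for coding length, so levels are compared within a gene only.

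**Figure D1:**
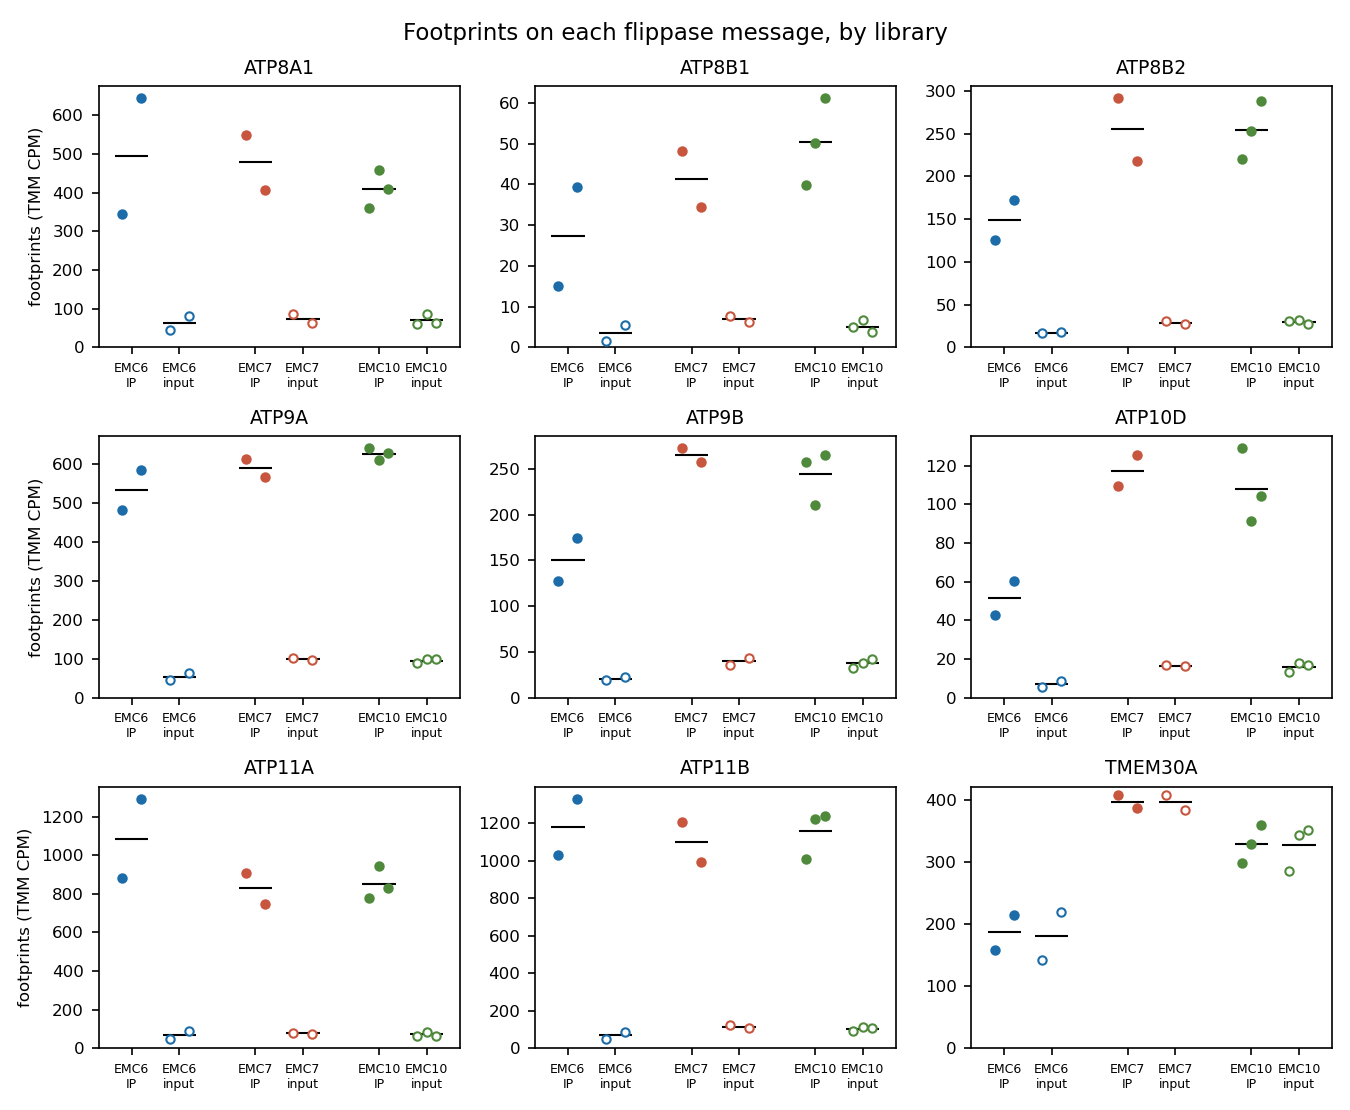
TMM-scaled CPM of each of the 9 flippase messages in each of the 14 libraries, on linear axes that start at 0 and differ between genes, with IP (filled) to the left of input (open) in each line, a point per library and a bar at the group mean. The IP points of the 8 catalytic messages lie above all input points of the same line, while IP and input points of TMEM30A overlap in every line.

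ATP11A and ATP11B carry phosphatidylserine and phosphatidylethanolamine at the plasma membrane and in the endosomal system. ATP11A stood at 881 and 1291 CPM in EMC6 IPs, against 48.1 and 90.7 CPM in EMC6 inputs. It stood at 909 and 750 CPM in EMC7 IPs, against 81.9 and 72.4 CPM in EMC7 inputs. In the EMC10 line it had 778, 944 and 829 CPM in IPs, against 64.7, 84.2 and 65.9 CPM in inputs. The lowest IP was thus several times the highest input in each line, although the EMC6 libraries of either fraction spread widely. The log2 change of ATP11A was 3.97 ± 0.24 (SE, n = 2 against 2) with EMC6, 3.42 ± 0.23 (n = 2 against 2) with EMC7 and 3.57 ± 0.19 (n = 3 against 3) with EMC10, with adjusted p of 4.70e-15, 9.36e-14 and 1.18e-16 in edgeR's quasi-likelihood test.

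ATP11B had 1030 and 1329 CPM in EMC6 IPs, against 51.0 and 85.9 CPM in EMC6 inputs. It had 1207 and 994 CPM in EMC7 IPs, against 124 and 107 CPM in EMC7 inputs. It had 1011, 1222 and 1240 CPM in EMC10 IPs, against 92.5, 114 and 110 CPM in EMC10 inputs. IP levels of ATP11B overlapped between the 3 lines, and its inputs were lower in the EMC6 line than in the others. Its log2 change was 4.11 ± 0.22 with EMC6, 3.25 ± 0.20 with EMC7 and 3.46 ± 0.17 with EMC10 (edgeR adjusted p = 1.11e-17, 2.22e-15 and 5.80e-19). By the mean change over the 3 baits, ATP11A (3.65 ± 0.13) and ATP11B (3.61 ± 0.12) ranked 47 and 49 of the 9458 genes.

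ATP8A1 moves phosphatidylserine in the Golgi and endosomes. It was measured at 344 and 646 CPM in EMC6 IPs, against 45.2 and 81.1 CPM in EMC6 inputs. With EMC7 the IPs held 550 and 407 CPM and the inputs 85.2 and 63.4 CPM. With EMC10 the IPs held 360, 458 and 410 CPM and the inputs 59.8, 86.0 and 63.8 CPM. In each line the library numbered highest in IP was also the one highest in input. The log2 change was 2.99 ± 0.30 with EMC6, 2.69 ± 0.29 with EMC7 and 2.55 ± 0.23 with EMC10, at edgeR adjusted p of 4.96e-08, 1.06e-07 and 1.02e-08. Its mean over the baits, 2.74 ± 0.16, was the smallest of the 8 catalytic messages and still above 97.3% of genes.

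ATP8B1 and ATP8B2 transport phosphatidylcholine at the plasma membrane, and loss of ATP8B1 causes familial intrahepatic cholestasis. ATP8B1 was the least counted member, with 8 and 36 counts in EMC6 IPs against 4 and 16 in EMC6 inputs. In CPM this was 15.0 and 39.4 in the IPs and 1.45 and 5.47 in the inputs. It had 48.2 and 34.5 CPM in EMC7 IPs against 7.68 and 6.11 CPM in EMC7 inputs. In the EMC10 line it had 39.7, 50.2 and 61.1 CPM in IPs against 4.87, 6.60 and 3.75 CPM in inputs. At these counts its error was the widest of the catalytic messages: the log2 change was 3.06 ± 0.47 with EMC6, 2.58 ± 0.34 with EMC7 and 3.29 ± 0.28 with EMC10 (edgeR adjusted p = 2.61e-06, 9.73e-08 and 5.55e-12). The call with EMC6 rested on IP replicate 2, without which the change was 2.07 (adjusted p = 0.0635).

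ATP8B2 was more evenly measured. Its IPs held 125 and 172 CPM with EMC6, against 16.3 and 18.1 CPM in inputs. With EMC7 it had 292 and 218 CPM in IPs against 31.2 and 26.7 CPM in inputs, and with EMC10 220, 254 and 289 CPM in IPs against 30.4, 31.7 and 26.8 CPM in inputs. Its log2 change barely moved between baits, at 3.13 ± 0.24 with EMC6, 3.14 ± 0.21 with EMC7 and 3.10 ± 0.17 with EMC10, and edgeR's adjusted p over the mean of the baits was 6.94e-23.

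ATP10D is a plasma membrane flippase of glucosylceramide. It had 43.0 and 60.2 CPM in EMC6 IPs, against 5.42 and 8.90 CPM in EMC6 inputs. It had 109 and 125 CPM in EMC7 IPs against 17.0 and 16.4 CPM in EMC7 inputs, and 129, 91.4 and 104 CPM in EMC10 IPs against 13.2, 18.0 and 16.9 CPM in EMC10 inputs. The EMC6 line was low in both fractions, and the change was nearly the same with each bait: 2.88 ± 0.31 with EMC6, 2.80 ± 0.22 with EMC7 and 2.74 ± 0.18 with EMC10 on the log2 scale. Over the mean of the baits edgeR's adjusted p was 4.54e-19.

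ATP9A and ATP9B reside in endosomes and the trans-Golgi network and, unlike the other catalytic members, are not known to need TMEM30A to leave the ER. ATP9A had 482 and 585 CPM in EMC6 IPs, against 44.5 and 63.0 CPM in EMC6 inputs. It had 613 and 566 CPM in EMC7 IPs against 102 and 98.1 CPM in EMC7 inputs, and 641, 609 and 629 CPM in EMC10 IPs against 88.1, 99.6 and 99.4 CPM in EMC10 inputs. The log2 change of ATP9A was 3.31 ± 0.19 with EMC6, 2.56 ± 0.18 with EMC7 and 2.71 ± 0.15 with EMC10 (edgeR adjusted p over the mean, 9.85e-24). ATP9B averaged 151 ± 33.3 CPM in EMC6 IPs and 20.9 ± 2.42 CPM in EMC6 inputs (SD, n = 2 each), 265 ± 11.0 CPM in EMC7 IPs and 40.0 ± 5.27 CPM in EMC7 inputs (SD, n = 2 each), and 244 ± 29.5 CPM in EMC10 IPs and 37.6 ± 5.20 CPM in EMC10 inputs (SD, n = 3 each). The changes of ATP9B were 2.87 ± 0.23, 2.73 ± 0.20 and 2.70 ± 0.16 with EMC6, EMC7 and EMC10. Both therefore lay within the range of the 6 other catalytic messages over the mean of the baits, ATP9A at 2.86 ± 0.10 and ATP9B at 2.77 ± 0.11.

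TMEM30A was measured at a depth that could show a change, and IP and input overlapped in every line. It stood at 159 and 215 CPM in EMC6 IPs, against 143 and 220 CPM in EMC6 inputs. It stood at 407 and 386 CPM in EMC7 IPs, against 407 and 384 CPM in EMC7 inputs, and at 299, 329 and 359 CPM in EMC10 IPs, against 285, 343 and 352 CPM in EMC10 inputs. Its log2 change was 0.06 ± 0.20 with EMC6, 0.00 ± 0.18 with EMC7 and 0.01 ± 0.15 with EMC10 (edgeR adjusted p = 0.864, 0.991 and 0.964). Over the mean of the baits it was 0.03 ± 0.10 (adjusted p = 0.859), which is 0.21 above the median of all genes and higher than 63.6% of them. A value near 0 holds for TMM scaling: with library size alone the mean change was -0.92 and with scaling on luminal and secreted messages -0.41, both called lower, while the median of all genes moved to -1.13 and -0.63. Relative to that median, TMEM30A lay 0.07 to 0.33 higher over the mean of the baits under every alternative run.

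**Figure D2:**
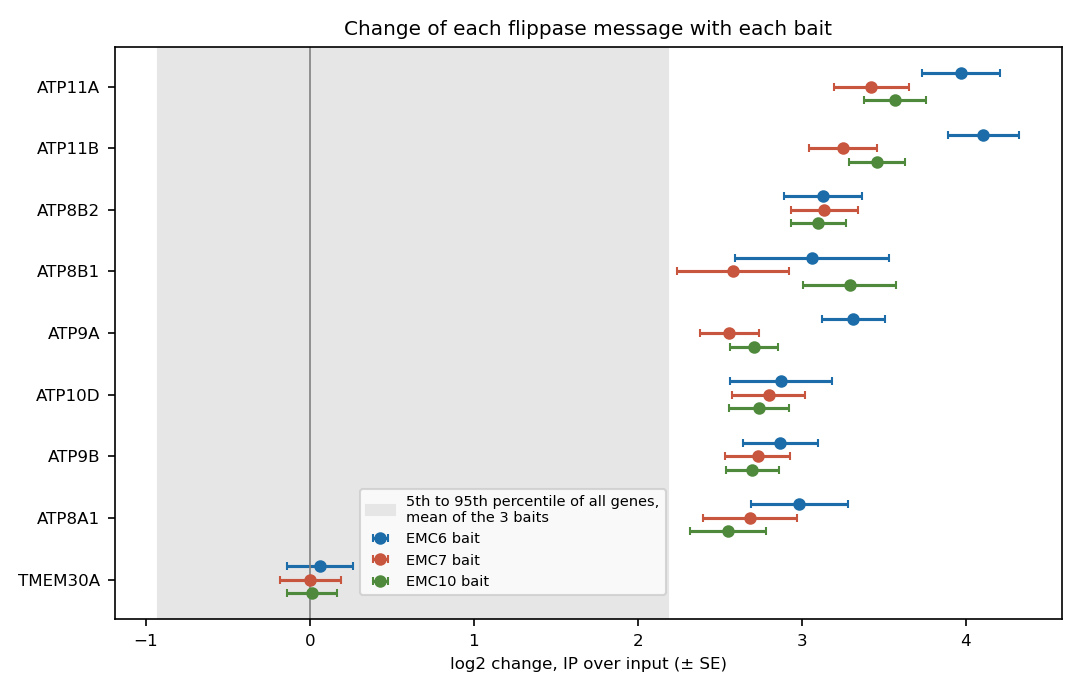
Log2 change of IP over input for each flippase message with each bait, with bars for the SE, from the fit across all genes; the grey band covers the middle of all genes, averaged over baits, between the percentiles named in its legend. The 8 catalytic messages lie to the right of the band with every bait and TMEM30A lies at 0.00 to 0.06.

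The catalytic subunits were set directly against their partner within each same-numbered IP and input, where the scaling of libraries cancels. In the 7 pairs the log2(IP/input) of every catalytic message, with 0.5 added to each count, exceeded that of TMEM30A. The difference averaged 3.63 ± 0.23 for ATP11A (SD over 7 pairs, 12.4-fold) and 3.57 ± 0.37 for ATP11B (11.9-fold). It was 3.08 ± 0.24 for ATP8B2, 3.00 ± 0.48 for ATP8B1, 2.82 ± 0.31 for ATP9A, 2.77 ± 0.26 for ATP10D, 2.72 ± 0.20 for ATP9B and 2.69 ± 0.18 for ATP8A1 (6.43-fold). Each of the 8 comparisons was above 0 in 7 of 7 pairs, and the exact sign-flip permutation test (both sides) gave p = 0.015625, unchanged by adjustment over the 8 and the smallest that 7 pairs allow. Across single pairs, the difference for ATP11A ran between 3.36 and 4.03, that for ATP11B between 3.20 and 4.17, and that for ATP8B1 between 2.47 and 3.96.

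**Figure D3:**
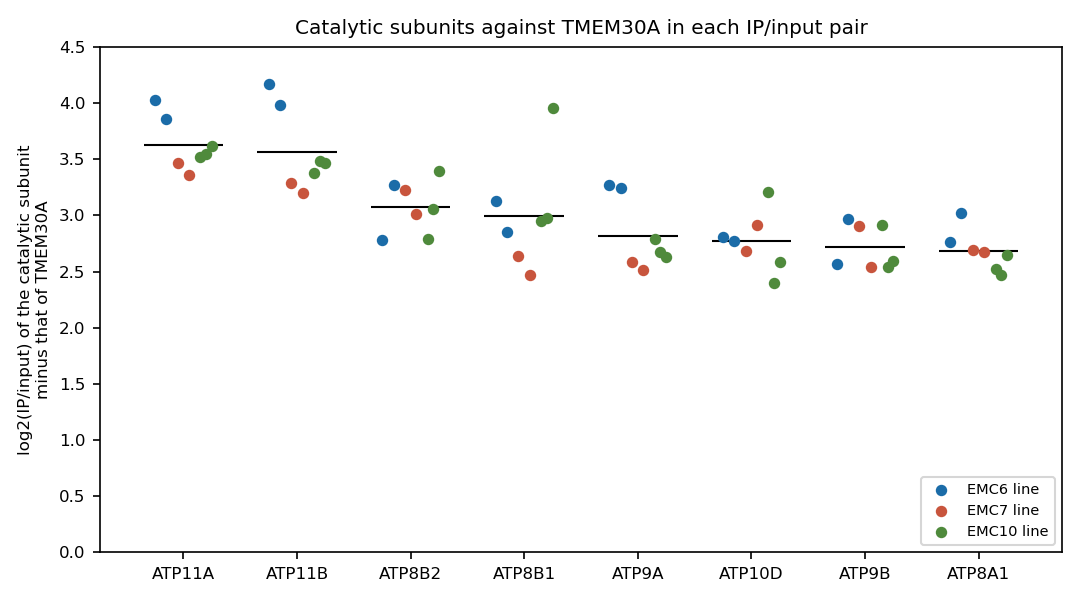
Difference in log2(IP/input) between each catalytic message and TMEM30A in each of the 7 IP and input pairs, coloured by bait, with the mean over pairs. All points lie above 0, and the EMC6 pairs of ATP11A, ATP11B, ATP9A and ATP8A1 lie above the pairs of the other baits.

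The same contrast appears in how footprints were divided among the 9 messages. TMEM30A took 4.96% and 4.76% of these footprints in EMC6 IPs (exact 95% binomial intervals 3.98% to 6.09% and 4.13% to 5.45%), against 38.2% and 36.9% in EMC6 inputs. It took 9.23% and 10.3% in EMC7 IPs, against 45.7% and 46.9% in EMC7 inputs. It took 8.00%, 7.89% and 8.58% in EMC10 IPs, against 42.5%, 41.8% and 45.1% in EMC10 inputs. The partner's share was thus lower in IP than in input in each of the 7 pairs, and lowest in the 2 EMC6 IPs. The intervals cover counting error only, as amplified reads need not be separate molecules.

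**Figure D4:**
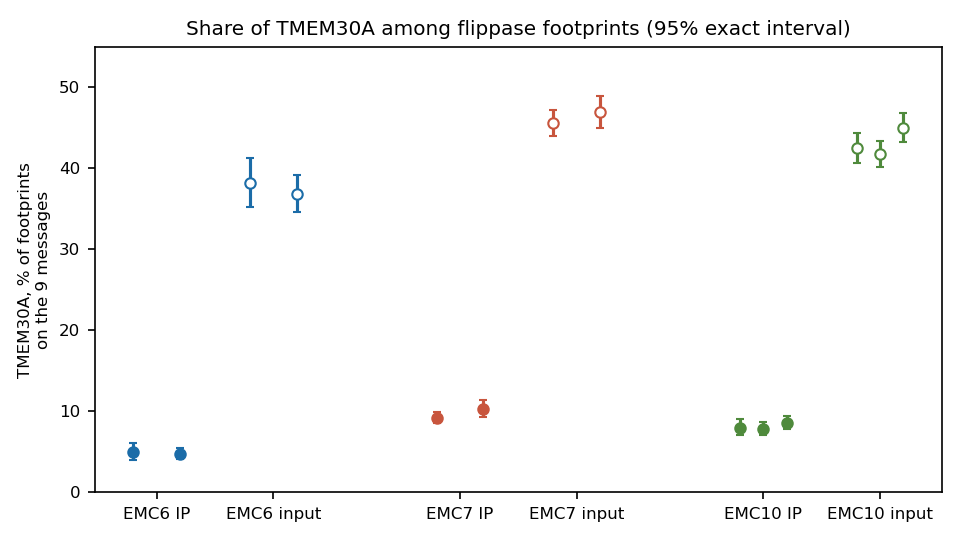
Percent of the footprints on the 9 flippase messages that fell on TMEM30A in each library, with exact 95% binomial intervals, IP left of input in each line. The IP libraries lie between 4.76% and 10.3% and the input libraries between 36.9% and 46.9%.

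Among the catalytic messages, ATP11A and ATP11B had the highest means, and neighbours among the other 6 differed by less than their spread. ATP11A exceeded ATP11B by 0.06 ± 0.14 (log2, SD over 7 pairs) and was higher in 5 of 7 pairs, a difference smaller than its spread. ATP11A and ATP11B exceeded ATP8A1, ATP8B2, ATP9A, ATP9B and ATP10D in 7 of 7 pairs, by 0.49 to 0.94, and ATP8B1 in 6 of 7 pairs. The step from ATP11B to ATP8B2, 0.49 ± 0.47, was about as large as its spread. Below it, the successive steps from ATP8B2 through ATP8B1, ATP9A, ATP10D and ATP9B to ATP8A1 averaged 0.03 to 0.18, each less than its SD over pairs, and the first of each 2 neighbours was the higher in 3 or 4 of 7 pairs. Of the 15 comparisons among these 6, the mean difference exceeded its SD in 2. ATP8B2 was above ATP8A1 in 7 of 7 pairs, by 0.39 ± 0.25 (SD over pairs, lowest 0.013), and above ATP9B in 6 of 7, by 0.36 ± 0.29. These differences are given as descriptions, with no test.

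Other P4-ATPases with few counts were set beside the members. ATP8A2, ATP8B3 and ATP8B4 were each called higher over the mean of the baits, against 23.7% of all genes called higher and 26.9% lower. ATP8A2, a phosphatidylserine flippase, changed by 2.86 ± 0.22 on the log2 scale (edgeR adjusted p = 4.58e-14), ATP8B3 by 2.17 ± 0.46 (0.000161) and ATP8B4 by 2.55 ± 0.74 (0.00444). ATP8B3 and ATP8B4 had 74 and 30 counts over all 14 libraries. ATP8B4 passed the filter on low counts only through the EMC6 IPs (4 and 8 counts), and ATP8B3 would not have passed without them. Their higher calls therefore depend on that filter and are no separate support. In single lines ATP8B4 was not called with EMC7 (edgeR adjusted p = 0.311) or EMC10 (0.198), nor ATP8B3 with EMC10 (0.0694). ATP10A and ATP10B, with 1 and 5 counts in all, and the second CDC50 protein TMEM30B, with 0 counts, could not be tested, and TMEM30C was not analysed here. Among the CDC50 subunits analysed here, TMEM30A was therefore the only one with a measurable value.

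Other P-type pumps and their single-pass partners were measured in the same libraries. Of 15 sodium, potassium, proton and calcium pumps 10 were tested. All 10 were called higher over the mean of the baits, against 23.7% of all genes called higher and 26.9% lower. Their median log2 change was 2.16 against -0.19 for all genes. The largest change among these was that of the plasma membrane calcium pump ATP2B3 (2.99 ± 0.40). In the EMC6 line it had only 0 and 9 counts in IPs, against 2 and 1 in inputs. ATP2A1 and ATP12A would not have passed the filter on low counts without IP libraries. Of 7 P5 and copper pumps 5 were tested and called higher, with a median of 2.82, between the copper pump ATP7A (1.67 ± 0.11) and ATP13A1 (3.23 ± 0.09), an ER ATPase that extracts misplaced membrane segments. The 8 catalytic flippases had a median of 2.92. Of 4 beta subunits, the single-pass partners of sodium and proton pumps, 3 were tested and 2 called higher, with a median of 0.26: ATP1B3 changed by 0.38 ± 0.09 (edgeR adjusted p = 0.000503), ATP1B1 by 0.26 ± 0.10 (0.0348) and ATP1B2 by 0.08 ± 0.21 (0.779). In log2(IP/input), TMEM30A was lower than ATP1B3 in 7 of 7 pairs (-0.35 ± 0.20, SD over pairs) and lower than ATP1B1 in 6 of 7 (-0.24 ± 0.19).

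Proteins that act on the same lipids were compared with the flippases over the mean of the baits, where 23.7% of all genes were called higher and 26.9% lower. Of 16 scramblases, which let lipids cross in both directions, 8 were tested, with 6 called higher, 1 lower and a median of 2.45. XKR8, a polytopic caspase-activated scramblase, changed by 3.71 ± 0.14, while PLSCR1, a protein with a single membrane segment at its end, fell by 1.20 on the log2 scale (SE 0.27, edgeR adjusted p = 0.000320). All 8 genes of phosphatidylserine and phosphatidylethanolamine synthesis were tested, with 7 called higher and a median of 1.73. PTDSS1, the polytopic phosphatidylserine synthase of the ER, changed by 3.90 ± 0.10, and the cytosolic ethanolamine kinase ETNK1 by 0.29 ± 0.11. Of 10 cytosolic proteins that regulate flippases or sort them, 1 was called higher, 4 lower and 5 neither, with a median of -0.19, against -0.19 for all genes. In this list the Golgi GTPase ARL1 changed by 0.61 ± 0.11 and the clathrin heavy chain CLTC fell by 1.01 on the log2 scale (SE 0.10).

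**Figure D5:**
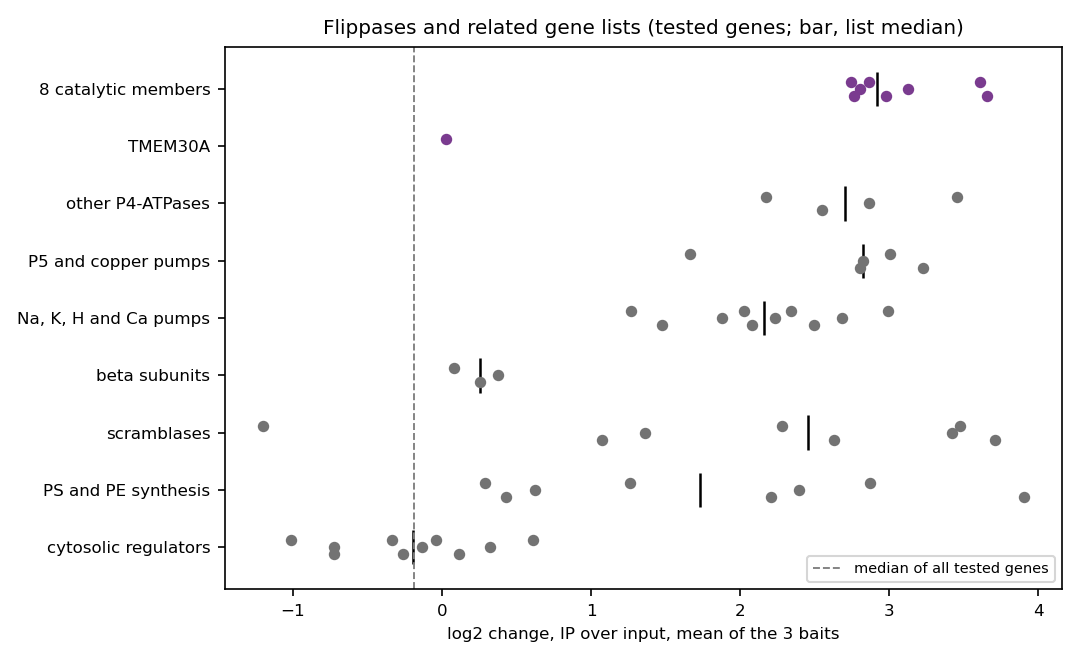
Log2 change of IP over input, mean of the 3 baits, for each tested gene of the catalytic flippases, TMEM30A and the related lists, with each list's median and the median of all genes at -0.19. The medians are 2.92 for the catalytic flippases, 2.16 and 2.82 for the other pumps, 0.26 for the beta subunits and -0.19 for the cytosolic regulators.

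The baits were compared by testing the difference of their IP over input changes. Of the 9 members 0 were called in edgeR's quasi-likelihood test for EMC6 minus EMC7 (0.518% of all genes called), 0 for EMC6 minus EMC10 (0.0740%) and 0 for EMC7 minus EMC10 (0.159%). At an unadjusted p under 0.05 there were 2, 2 and 0 members. The share of all genes at that threshold was not counted, so these counts show no excess. DESeq2 called 1 member, ATP9A, higher for EMC6 minus EMC7, where it called 70 genes higher and 78 lower. ATP11B differed by 0.86 ± 0.28 for EMC6 minus EMC7 (adjusted p = 0.165) and 0.65 ± 0.25 for EMC6 minus EMC10 (0.716), and ATP9A by 0.76 ± 0.25 (0.197) and 0.61 ± 0.23 (0.691). The value of ATP11B turned on single EMC6 libraries: for EMC6 minus EMC7 it was 1.42 without EMC6 input replicate 2, 1.16 without EMC6 IP replicate 1 and 0.54 without EMC6 input replicate 1, and for EMC6 minus EMC10 it was 1.20 without EMC6 input replicate 2 and 0.33 without EMC6 input replicate 1. ATP11A differed by 0.55 ± 0.31 between EMC6 and EMC7 (0.663), and ATP8B1 by -0.71 ± 0.45 between EMC7 and EMC10 (0.970).

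With the pairing of IP and input as a replicate block, 3 members were called higher for EMC6 minus EMC7, against 2.82% of all genes: ATP11B at 0.86 ± 0.14 (edgeR adjusted p = 3.42e-08), ATP9A at 0.75 ± 0.15 (5.16e-05) and ATP11A at 0.55 ± 0.14 (0.00322). For EMC6 minus EMC10 the block gave 2 (1.88% of all genes), ATP11B at 0.66 ± 0.13 (5.25e-05) and ATP9A at 0.60 ± 0.14 (0.00267). For EMC7 minus EMC10 it called 0 members either way, against 4.38% of all genes. The blocked fit has 4 residual degrees of freedom, so its errors rest on the spread shared over genes. The pairwise values, where scaling cancels, use the same libraries as the block and are no separate support for its calls. There the EMC6 pairs of ATP11A differed from TMEM30A by 4.03 and 3.86, against 3.36 to 3.62 in the 5 other pairs. For ATP11B they differed by 4.17 and 3.98 against 3.20 to 3.48, and for ATP9A by 3.28 and 3.24 against 2.52 to 2.79. ATP8A1, which the block did not call, stood apart as well, by 2.77 and 3.02 against 2.47 to 2.69. For ATP8B1, ATP8B2, ATP9B and ATP10D the EMC6 pairs did not both lie above the others. The block was not refitted with libraries left out. In the unblocked fit without EMC6 input replicate 2, EMC6 minus EMC7 was 1.17 for ATP9A, 1.22 for ATP11A and 1.42 for ATP11B. EMC6 minus EMC10 was then 1.00, 1.055 and 1.20. Without EMC6 IP replicate 1, EMC6 minus EMC7 was 1.02 for ATP9A and 1.16 for ATP11B. The lowest value of ATP11B with a library left out was 0.54. Each of these fits leaves a single EMC6 library in a group.

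The inputs show how footprints on the messages differed between the lines, in solubilized microsomes without selection. Levels of the messages themselves were not analysed here. In the EMC6 line 6 of 9 members were called lower than the mean of the EMC7 and EMC10 lines and 0 higher, against 21.8% of all genes called lower and 15.3% higher. TMEM30A averaged 181 ± 54.3 CPM in EMC6 inputs (SD, n = 2), against 396 ± 16.3 CPM in EMC7 inputs (SD, n = 2) and 327 ± 36.1 CPM in EMC10 inputs (SD, n = 3), a log2 difference of -0.99 ± 0.16 (edgeR adjusted p = 8.22e-06). ATP10D differed by -1.18 ± 0.26 (0.000404), ATP9B by -0.89 ± 0.19 (0.000412), ATP9A by -0.86 ± 0.16 (5.78e-05), ATP8B2 by -0.77 ± 0.21 (0.00328) and ATP11B by -0.69 ± 0.18 (0.00228). ATP8B1 (-0.76, adjusted p = 0.152), ATP8A1 (-0.19, 0.582) and ATP11A (-0.10, 0.729) did not pass. The 2 EMC6 inputs differed for several members. Without EMC6 input replicate 1, ATP11B was at -0.38 (adjusted p = 0.147) and ATP8B1 at -0.15, and without EMC6 input replicate 2 ATP11B was at -1.17, ATP8B1 at -2.06 (0.00889) and ATP11A at -0.68 (0.0105). Other lists of ER messages were lower in the EMC6 inputs as well. Of 58 luminal and secreted messages 56 were called lower, with a median of -0.97, against a median of -0.77 for the 8 catalytic flippases. Lower calls were made for 7 of 10 sodium, potassium, proton and calcium pumps, 4 of 5 P5 and copper pumps, 6 of 8 scramblases and 6 of 8 genes of phosphatidylserine and phosphatidylethanolamine synthesis, against 0 of 10 cytosolic regulators. The direction depends on scaling: on luminal and secreted messages the same differences were 0.05 for TMEM30A and 0.93 for ATP11A. There 0 members were called lower and 2 higher, against 217 and 7039 of 9458 genes, and the median of all genes moved to 1.12. Line, EMC6 knockout and the larger share of reads not assigned to a gene go together here and cannot be told apart.

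TMEM30A and the catalytic messages were also matched to the genes whose log2(IP/input) was nearest over the 7 pairs, among 7873 genes with a mean input count of at least 20. The 5 nearest to TMEM30A, by root mean square distance in log2 units, were GHITM (0.0585), NRCAM (0.0663), APP (0.0787), APLP2 (0.0789) and PRKCSH (0.0790). GHITM encodes a mitochondrial membrane protein that is itself polytopic. NRCAM, APP and APLP2 encode single-pass surface proteins, and PRKCSH a luminal subunit of ER glucosidase II, which was also in the list used for scaling on luminal messages. The 5 nearest to the median of the catalytic messages were ABCC5 (0.0900), PCNX1 (0.109), DPY19L3 (0.117), SLC16A9 (0.147) and ADCY3 (0.151), an ABC transporter, a pecanex protein, a mannosyltransferase, a solute carrier and an adenylyl cyclase, all polytopic.

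The RefSeq annotation of GRCh38.p14 places ATP11A on chromosome 13 at 112690038 to 112887168, ATP11B on chromosome 3 at 182793504 to 182921629 and TMEM30A on chromosome 6 at 75252924 to 75284792. All 9 members matched that annotation, and no other gene counted in the files overlaps the span of a member.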

How the data were processed

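Footprint counts per gene symbol, whole numbers with no scaling, were deposited by the authors for each library. The submitters' processing notes name hg38, TopHat2 2.1.0, Bowtie2 2.2.6 and cutadapt 4.1. Annotation, strand setting and duplicate removal: not given in the sources used here. The 5 rows that name no gene were left out.

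A single edgeR 4.0.16 model (R 4.3.3, limma 3.58.1) over the 14 libraries had a mean per line and fraction. TMM scaling, filterByExpr (9458 of 19440 symbols) and robust quasi-likelihood tests were used, and p-values were adjusted by Benjamini-Hochberg with a threshold of 0.05. Catalytic messages were set against TMEM30A over 7 pairs by an exact sign-flip test. Steps were tested on simulated counts. Alternatives were DESeq2 1.42.0, library size alone, scaling on luminal and secreted messages, no filter, the bait messages left out, only the lines compared, a replicate block and each library left out.

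Named genes were all members, the rest of the family, the highest and lowest gene of each list and the 5 nearest genes. Some genes that meet this rule are not reported here. ATP1B1 was added after its values were seen. Members and lists were chosen with earlier results of these data known. Protein sequences and coding lengths were not used here.

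The labels give each IP the number (also named as batch) of the input it was made from, so the numbers pair the libraries. Deviations from group means of same-numbered libraries correlated at 0.28 with EMC6, 0.08 with EMC7 and 0.04 to 0.10 with EMC10. Replicates correlated at r = 0.915 to 0.988 across genes and every pair differed by more than sampling noise (chi-square over its degrees of freedom, 1.78 to 8.36). Whether they were separate cultures is not labelled. The p-values therefore reflect spread among libraries that may be technical.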

Additional observations from a re-analysis of the deposited data

How the results depend on the processing

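Over 704 combinations of a catalytic message's IP over input change with an alternative, none turned its direction and 703 kept their side of the threshold, over a range of 1.44 to 4.64. The exception was ATP8B1 with EMC6, without EMC6 IP replicate 2 (2.07). Differences from TMEM30A over pairs kept their direction under every alternative run.

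TMEM30A near 0 turned sign. With library size alone it was -0.64 with EMC6, -1.01 with EMC7, -1.10 with EMC10 and -0.92 over the mean. Each time it was called lower, as were 4307, 6026, 7158 and 7276 of 9458 genes. With library size after leaving out the bait messages, chosen after seeing the data, it was -0.64, -0.79, -0.69 and -0.71. It was again called lower each time, as were 4256, 5144, 5652 and 6709 of 9475 genes. The median gene there stood at -0.82, -0.93, -0.86 and -0.92. Scaling on luminal and secreted messages gave -0.25, -0.65, -0.33 and -0.41. With EMC7 and over the mean 1 member was called lower, as were 4264 and 5470 of 9458 genes. Without a filter it was -0.021 with EMC7 and -0.0043 with EMC10. Leaving out each library gave -0.21 to 0.52 with EMC6, -0.050 to 0.041 with EMC7, -0.079 to 0.077 with EMC10 and -0.068 to 0.16 over the mean.

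The counts of called members that follow are for alternatives with no single library left out. For EMC6 minus EMC7, members called higher numbered 1 with DESeq2, 2 with library size alone, 2 with luminal scaling, 3 with the replicate block and 1 with library size without baits. Over all genes these settings called 70, 196, 173, 267 and 78 higher, against 18 in the main fit. Leaving out each library gave 0.54 to 1.42 for ATP11B. For EMC6 minus EMC10, with no single library left out, members called higher numbered 2 with library size alone and 2 with the replicate block. Over all genes these settings called 493 and 178 higher, against 6 in the main fit. Leaving out each library gave 0.33 to 1.20 for ATP11B. The block changed no other call of a member. It could not be fitted to the inputs, which are not paired between lines.

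For the inputs, luminal scaling left 0 members lower and 2 higher, against 217 of 9458 genes lower and 7039 higher. Under it ATP8A1 was at 0.84, ATP8B1 0.26, ATP8B2 0.27, ATP9A 0.18, ATP9B 0.16, ATP11A 0.93, ATP11B 0.35 and TMEM30A 0.049, with the median of all genes at 1.12. Library size alone gave ATP8A1 0.11 and ATP11A 0.20, and without bait messages 0.10 and 0.19. Leaving out each library gave -0.73 to 0.15 for ATP8A1, -0.68 to 0.27 for ATP11A, -2.06 to -0.15 for ATP8B1 and -1.17 to -0.38 for ATP11B. The cause of these shifts was not tested.

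Counts over all genes moved with scaling: with library size alone 1140 genes were called higher and 7276 lower over the mean of the baits, against 2243 and 2547 with TMM, 1695 and 5470 with luminal scaling and 2407 and 1520 with DESeq2. Depth limits ATP8B1, ATP8B3 and ATP8B4, and ATP2B3 in the EMC6 line.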
